A study of Homo sapiens with 14 samples.

Results

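The MYC-MAX network was followed as 10 genes, MYCN, MYC, MYCL, MAX, MXD1, MXD3, MXD4, MXI1, MNT and MLX, taken by gene name out of 19923 genes counted in 14 RNA-seq libraries of SK-N-BE2, an established human neuroblastoma cell line that carries an amplified MYCN gene. All 10 names were found in the count tables. The libraries formed 7 groups of 2. In batch 1, cells were given H2O, 10 µM CoCl2 (cobalt chloride, a salt widely used as a chemical mimic of low oxygen) or 50 µM CoCl2. In batch 2, cells with no CoCl2 dose in the label were named WT, TET2KO_1, TET2KO_2 or TET2KO_3. TET2 is an enzyme that oxidises methylated cytosine in DNA. The labels do not give how the knockouts were made or whether they are clones, how long CoCl2 was applied, or whether replicates were separate cultures, so p-values measure only the spread between these libraries, which may be technical.

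MYC-family proteins (MYCN, MYC and MYCL) are transcription factors that bind DNA only as pairs with MAX, at a short motif called the E-box. The same MAX protein also pairs with the MXD proteins, MXI1 and MNT, which recruit corepressors to the same motif and oppose MYC. MLX is a MAX-like protein that pairs with the glucose-sensing factors MondoA (gene MLXIP) and ChREBP (gene MLXIPL). In neuroblastoma, amplification of MYCN marks aggressive disease, and MYCN-amplified cells usually keep little MYC.

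Library totals ranged from 31214128 to 39540111 counts in the CoCl2 experiment (batch 1). They ranged from 52095024 to 59263320 in the knockout experiment (batch 2), mostly as single mates of a pair. TET2 itself did not lie below both WT libraries in any library labelled as a TET2 knockout. Its levels were 70.8 and 64.8 CPM (counts scaled to a common library total) in WT, 80.4 and 76.6 in TET2KO_1, 87.4 and 91.1 in TET2KO_2 and 68.2 and 75.4 in TET2KO_3. The counts therefore give no check of those labels, and loss of TET2 protein was not measured. Of 12 adrenergic neuroblast markers, 11 were at 1 CPM or more in every group. All comparisons below were made within a batch with edgeR's quasi-likelihood test, and a gene was called where its p, adjusted by Benjamini-Hochberg over all genes tested, was under 0.05. TET2 was called higher than WT in TET2KO_1 (log2 fold change 0.21 ± 0.05, edgeR adjusted p = 0.000664) and TET2KO_2 (0.40 ± 0.05, edgeR adjusted p = 3.85e-12). It was not called in TET2KO_3 (0.08 ± 0.05, edgeR adjusted p = 0.301). Batch 1 and batch 2 differ in counting version and in whether mitochondrial genes have counts. They may also differ in culture and handling, which the labels do not give. These cannot be told apart, so no test was made between H2O and WT.

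The other members lie on chromosomes 1 (MYCL), 2 (MXD1), 4 (MXD4), 5 (MXD3), 8 (MYC), 10 (MXI1), 14 (MAX) and 17 (MNT and MLX). MYCN lies on chromosome 2 (15940550 to 15947007, plus strand, GRCh38). The 250 bases before its RefSeq start (GRCh38.p14, chr2:15940300-15940549, plus strand) are shown because the results turn on this gene. They hold neither of the motifs searched on both strands, the E-box CACGTG and the hypoxia-inducible factor core ACGTG, which is contained in CACGTG. Across all counted genes with a RefSeq window of 300 bases (250 before and 50 after the start), 11% held the E-box and 28.7% the core in at least 1 window.
MYCN: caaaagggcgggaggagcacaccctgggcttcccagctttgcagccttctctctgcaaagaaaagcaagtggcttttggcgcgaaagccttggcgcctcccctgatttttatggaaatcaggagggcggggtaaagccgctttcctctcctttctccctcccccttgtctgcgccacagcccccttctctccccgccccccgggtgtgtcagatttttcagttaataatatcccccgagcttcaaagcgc
Of the 10 genes, 9 had such a window and 3 held an E-box, namely MXD4, MNT and MLX. MYC had no entry.

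MYCN transcripts exceeded those of every other member by far. In H2O its level was 2007.5 and 1999.6 CPM per kilobase of exon. MAX, its obligate partner, was at 13.6 and 13.9 CPM per kilobase in the same libraries. Ranked per length among all genes, MYCN was between place 1 and place 4 in the 6 batch 1 libraries and between place 6 and place 13 in the 8 batch 2 libraries. It took 0.528% and 0.525% of all counts in the H2O libraries and 0.46% and 0.465% in WT. The 13 mitochondrial genes had counts in every batch 2 library and in no batch 1 library. Ranks and shares of counts therefore cannot be compared between the batches.

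**Figure D1:**
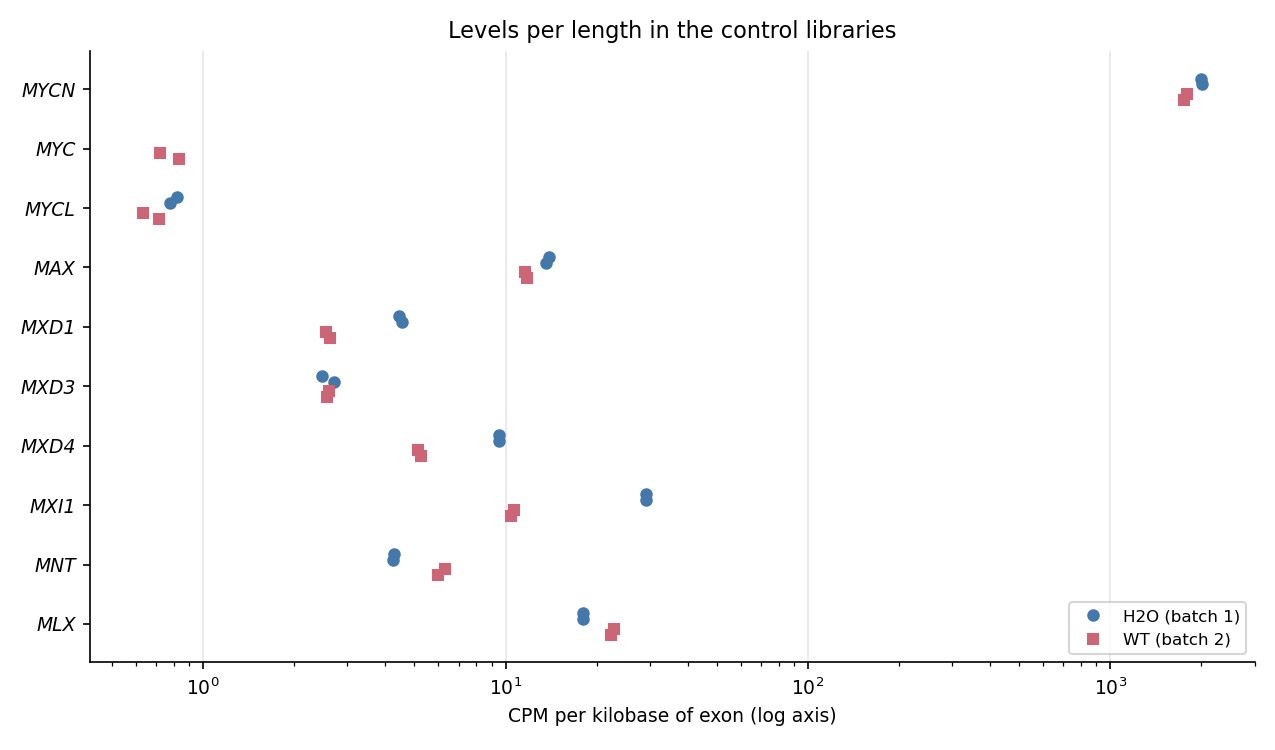
Levels of the 10 genes per length in the control libraries of each batch. The x axis is CPM per kilobase of exon on a log scale, circles are the 2 H2O libraries and squares the 2 WT libraries, and MYC at 0 in H2O is not drawn. MYCN lies apart from the other 9 genes in both controls.

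The other members followed in an order that differed between the batches. In H2O, mean CPM per kilobase ran from MXI1 (29.2) through MLX (18.0), MAX (13.7), MXD4 (9.51), MXD1 (4.5), MNT (4.27), MXD3 (2.59) and MYCL (0.799) to MYC, which had no counts. In WT it ran from MLX (22.6) through MAX (11.7), MXI1 (10.6), MNT (6.16), MXD4 (5.2), MXD1 (2.59), MXD3 (2.58) and MYC (0.777) to MYCL (0.675). Neighbours in the order were apart in both libraries of a group with 4 exceptions. These were MAX and MLX at 50 µM CoCl2, MXD1 and MXD3 in WT, MYCL and MYC in TET2KO_2, and MAX and MXI1 in TET2KO_3, whose libraries overlapped.

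Parts of some exons are shared with other genes. Without a strand setting, reads shared with a gene on the opposite strand cannot be assigned by strand. RAB24 overlaps MXD3, and SNRNP27 overlaps MXD1, on the same strand, where such a setting would not separate the reads. The shared part was 22.3% of MXD3 exon bases with PRELID1 and 18.0% with RAB24, 18.1% of MLX with PSMC3IP, 13.1% of MAX with FNTB, 12.2% of MNT with AC006435.1 and 3.7% of MYCN with its antisense transcript MYCNOS. MYC and MXD4 shared none, and the remaining 3 members shared at most 4.5%.

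MYCN was slightly above H2O at 10 µM CoCl2 and below it at 50 µM. MYCN was at 5252 and 5231 CPM in H2O, 5577 and 5562 CPM at 10 µM, and 4500 and 4497 CPM at 50 µM. Both libraries at 10 µM lay above both H2O libraries, and both libraries at 50 µM lay below them. The log2 fold change against H2O was 0.09 ± 0.01 (SE) at 10 µM (edgeR adjusted p = 4.12e-10) and -0.22 ± 0.01 at 50 µM (edgeR adjusted p = 1.1e-40). Both sizes lay near the median absolute log2 fold change of all genes, 0.07 at 10 µM and 0.17 at 50 µM. The 2 libraries of each batch 1 group differed by little more than counting error (chi-square per gene 1.23 to 1.46). Small p-values here may therefore not measure spread between cultures. Between the doses MYCN fell by 0.31 on the log2 scale (SE 0.01, edgeR adjusted p = 9.13e-58), to 0.808 of its 10 µM level. All 15 alternative analyses kept these 3 calls.

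The other family genes were scarce in batch 1. MYCL, the family member first found in lung cancer, was at 3.93 and 4.16 CPM in H2O, 3.22 and 2.86 at 10 µM and 1.86 and 1.76 at 50 µM. Its libraries did not overlap between groups and were lowest at 50 µM. It fell by 1.16 on the log2 scale at 50 µM (SE 0.16, edgeR adjusted p = 2.79e-11), to 0.447 of H2O, and by 0.74 between the doses (SE 0.17, edgeR adjusted p = 7.43e-05). The fall of 0.42 at 10 µM was called (SE 0.13, edgeR adjusted p = 0.0126), and the call was lost without H2O replicate 2 (0.0937), without 10 µM replicate 2 (0.185) and with DESeq2 (0.249), each an adjusted p. MYC gave 0 and 0 counts in H2O, 1 and 2 counts at 10 µM and 3 and 5 counts at 50 µM. It did not pass the filter on low counts in batch 1. A count of 0 there allows up to 0.0766 and 0.0756 CPM (3 counts, counting error only), so no fold is given.

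**Figure D2:**
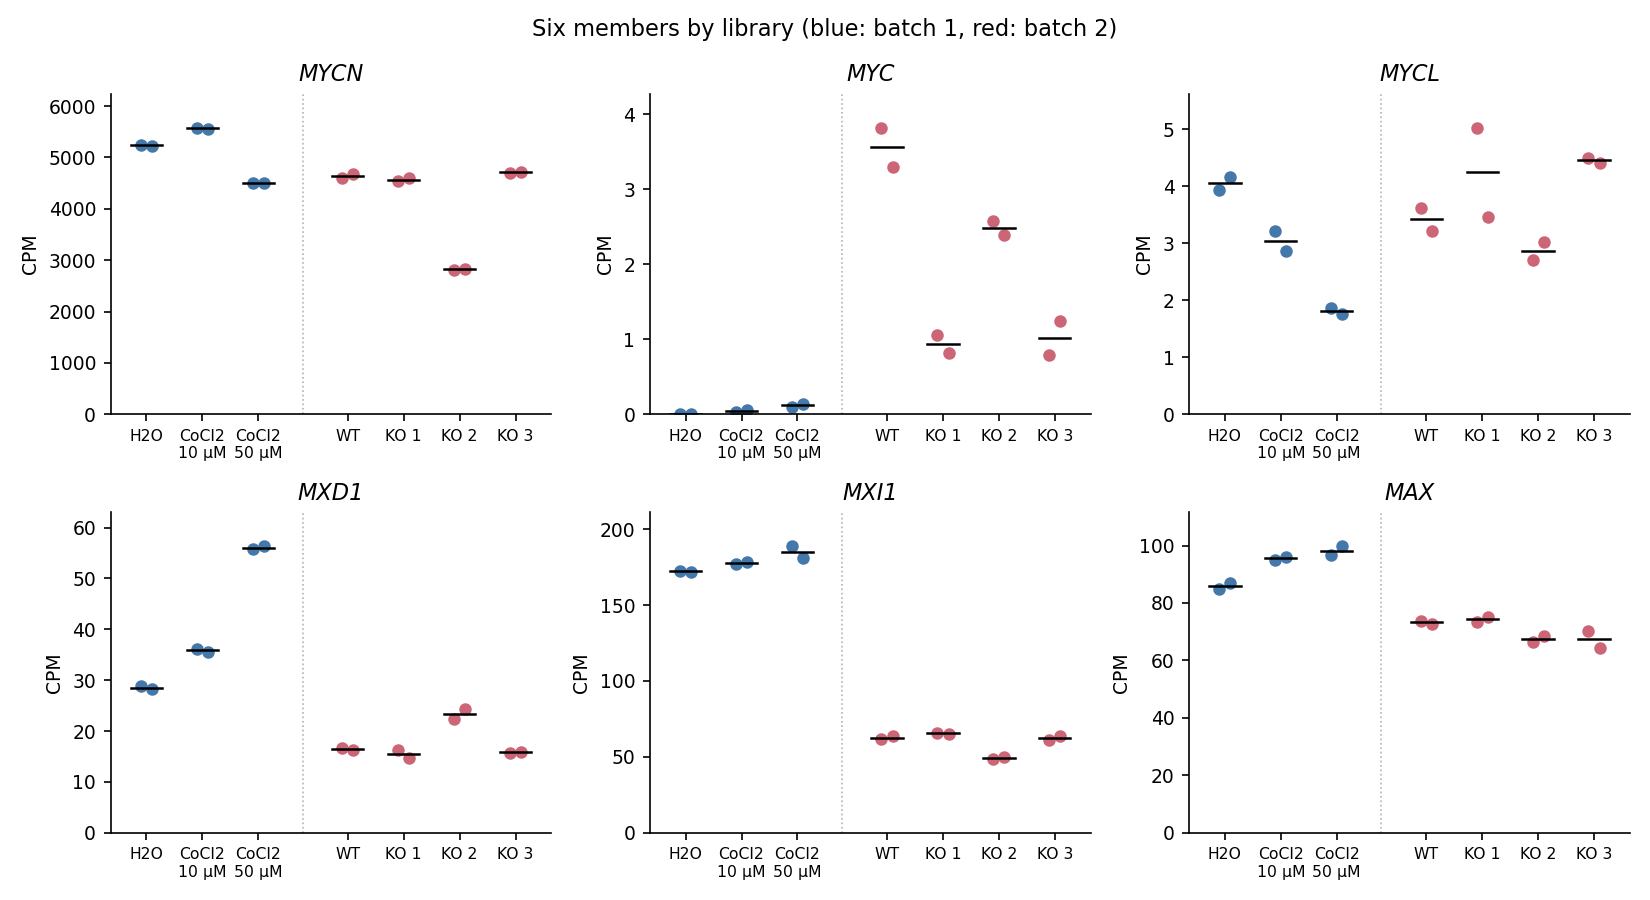
CPM of 6 members in each of the 14 libraries. Each panel has its own y axis starting at 0, each point is 1 library, black lines are group means of 2 libraries, and a dotted line separates the batches. MXD1 rises and MYCL falls from H2O to 50 µM CoCl2, and MYCN is lowest in TET2KO_2.

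MAX rose modestly. Its level was 85.0 and 87.0 CPM in H2O, 95 and 96.0 at 10 µM and 96.8 and 99.7 at 50 µM. All 4 treated libraries were above both controls. The log2 fold change was 0.15 ± 0.03 at 10 µM (edgeR adjusted p = 9.41e-06) and 0.19 ± 0.03 at 50 µM (edgeR adjusted p = 2.37e-09). The doses themselves were not called different (0.04 ± 0.03, edgeR adjusted p = 0.236).

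Among the MAX-binding antagonists, MXD1 changed most. MXD1, a repressor commonly induced when cells leave the cycle and differentiate, was at 28.9 and 28.2 CPM in H2O, 36.1 and 35.6 at 10 µM and 55.8 and 56.3 at 50 µM. No library of one group reached the next. It rose 1.25-fold at 10 µM (log2 fold change 0.33 ± 0.04, edgeR adjusted p = 6.3e-10) and 1.96-fold at 50 µM (0.97 ± 0.04, edgeR adjusted p = 7.53e-53). The step between the doses was 0.65 ± 0.04 (edgeR adjusted p = 3.49e-34). MXD1 and MYCN thus stood in opposite order at 50 µM, one above and one below H2O, while both were above H2O at 10 µM.

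Smaller rises were called for other antagonists at 50 µM. MXD3, which is expressed in proliferating cells unlike the other MXD genes, was at 13.9 and 12.8 CPM in H2O and 17.0 and 17.4 at 50 µM, a log2 fold change of 0.37 ± 0.07 (edgeR adjusted p = 3.49e-07). At 10 µM its libraries, at 14.1 and 13.3 CPM, overlapped those of H2O. MNT, the broadly expressed antagonist, went from 37.0 and 37.3 CPM to 40.5 and 42.2 (0.16 ± 0.04, edgeR adjusted p = 0.000664). MXI1, also known as MXD2 and a known target of hypoxia-inducible factor, went from 173 and 172 CPM to 189 and 181 (0.10 ± 0.02, edgeR adjusted p = 5.37e-05). MXD4 was not called at either dose, at 65.4 CPM in both H2O libraries and 63.7 and 63.0 at 50 µM (-0.05 ± 0.03, edgeR adjusted p = 0.239).

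Between the doses MXI1 (0.06 ± 0.02, edgeR adjusted p = 0.0328) and MNT (0.10 ± 0.04, edgeR adjusted p = 0.0344) passed narrowly. The MXI1 call held in 8 of 15 alternatives. It was lost with DESeq2 (DESeq2 adjusted p = 0.148) and without the filter on low counts (edgeR adjusted p = 0.129). It was also lost without 10 µM replicate 1 (log2 fold change 0.05) or replicate 2 (0.06) and without 50 µM replicate 1 (0.03). The MNT call held in 9 of 15 alternatives. It was lost with DESeq2 (DESeq2 adjusted p = 0.21) and without the filter on low counts (edgeR adjusted p = 0.0555). It was also lost without 10 µM replicate 1 (log2 fold change 0.11) or replicate 2 (0.09) and without 50 µM replicate 2 (0.07).

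MLX was lower at the higher dose. It was at 76.6 and 76.5 CPM in H2O, 75.3 and 74.0 at 10 µM and 67.2 and 65.7 at 50 µM. The log2 fold change was -0.21 ± 0.03 at 50 µM (edgeR adjusted p = 8.33e-09), while the value of -0.04 ± 0.03 at 10 µM was not called. MLXIP, encoding its partner MondoA, was not called at 10 µM (0.01 ± 0.02) or 50 µM (-0.05 ± 0.02), and MLXIPL had at most 4 counts in any library. The thioredoxin inhibitor TXNIP and the arrestin ARRDC4, which MondoA-MLX is known to activate, both rose. TXNIP was at 228 and 234 CPM in H2O, 294 and 286 at 10 µM and 349 and 344 at 50 µM (log2 fold changes 0.33 and 0.59). ARRDC4 rose by 0.28 at 10 µM and 0.37 at 50 µM.

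In all, 4 of the 9 tested members were called at 10 µM, 3 higher and 1 lower, where 22.7% of all tested genes were called (11.6% higher and 11.1% lower). At 50 µM, 8 of 9 were called, 5 higher and 3 lower, where 61.4% of all genes were called (30.4% higher and 31.1% lower). Between the doses, 7 of 9 were called, 4 higher and 3 lower, against 52.8% of all genes (26.2% higher and 26.5% lower). With so many genes called at 50 µM, being called there does not set the members apart. Their sizes varied widely: MYCL and MXD1 exceeded the median absolute log2 fold change of all genes (0.17) severalfold, and MXI1, MNT and MXD4 lay below it.

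**Figure D3:**
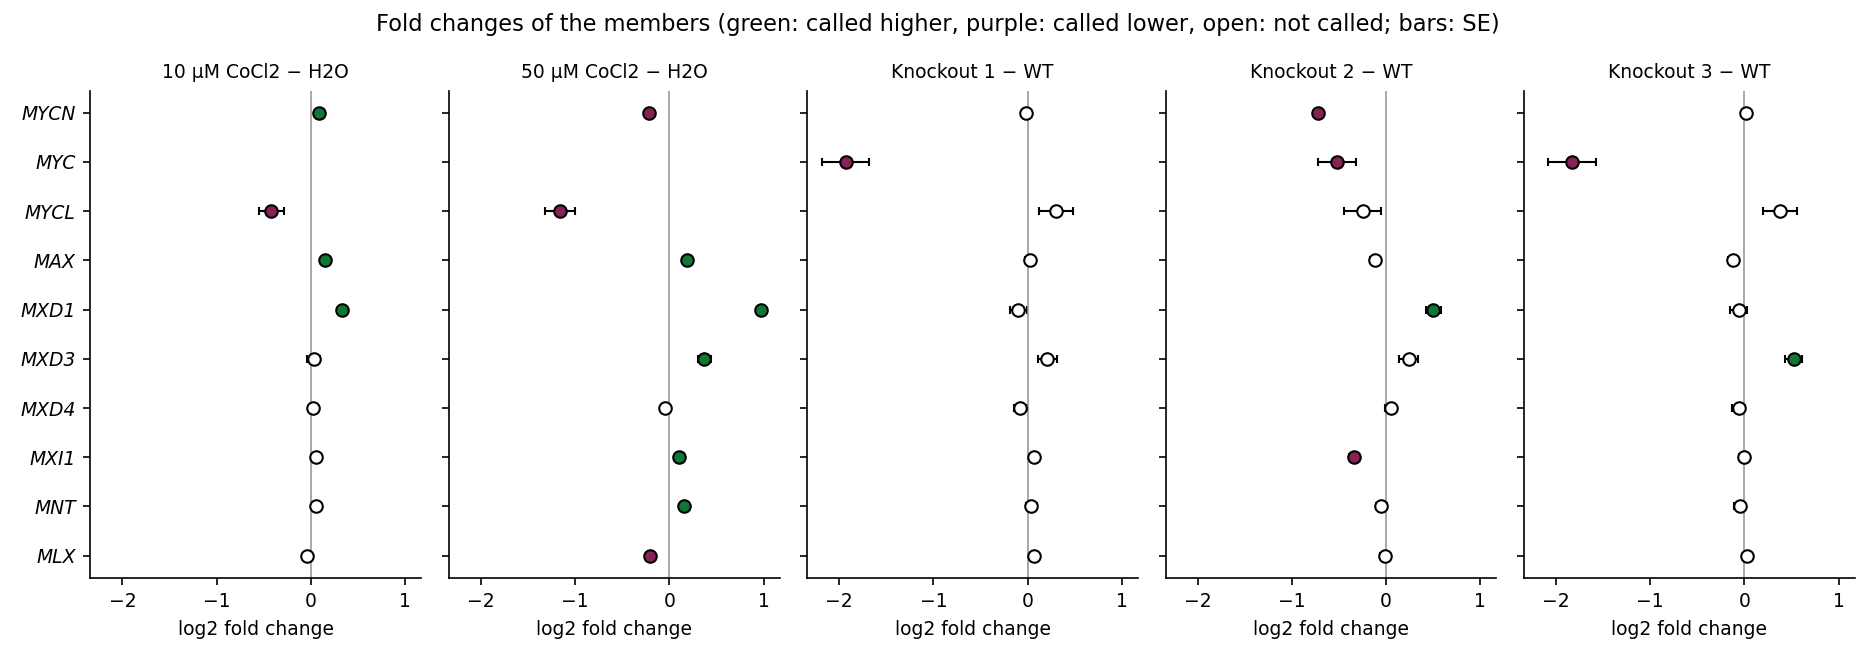
Log2 fold changes of the 10 members in 5 comparisons, with bars for the SE. Green points were called higher, purple points lower and open points were not called; MYC was not tested in batch 1. MYCN is called in 3 of the 5 panels and MXD4 in none.

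The balance of transcripts within the network moved with these values. The ratio of MYCN to MAX per kilobase was 148 and 144 in H2O, 140 and 138 at 10 µM and 111 and 108 at 50 µM. The ratio of MYCN to the summed antagonists (MXD1, MXD3, MXD4, MXI1 and MNT) per kilobase was 40.0 and 40.1 in H2O, 40.6 in both 10 µM libraries and 29.7 and 30.2 at 50 µM. Both ratios were lowest at 50 µM, with no overlap with H2O. They describe RNA only, and protein amounts were not measured.

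Markers of other cell types were read in the same libraries. The summed level of 8 mesenchymal markers was 1250 to 1254 CPM in H2O and 1604 to 1623 at 50 µM, with 3 of 6 tested called higher and 2 lower. Of all genes, 30.4% were higher there and 31.1% lower. Immune markers summed to 5.72 to 5.9 CPM in H2O and 19.2 to 19.7 at 50 µM, with 1 of 5 at 1 CPM or more; the defining markers PTPRC and CD3E were at 0 in H2O and neither was at 0 in both libraries at 50 µM. Endothelial markers summed to at most 1.97 CPM in batch 1. Their part in the results was not tested, and in bulk RNA fewer cells of a type and less RNA per cell cannot be told apart.

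The question in batch 2 was whether the network differed in the cells labelled TET2 knockout. MYCN was called different from WT in TET2KO_2 and not in the other 2. It was at 4600 and 4679 CPM in WT, 4548 and 4594 in TET2KO_1, 2815 and 2837 in TET2KO_2, and 4700 and 4715 in TET2KO_3. The TET2KO_2 libraries lay far below all 6 others, at 0.609 of WT (log2 fold change -0.72 ± 0.03, edgeR adjusted p = 9.33e-71). The values of -0.02 ± 0.03 in TET2KO_1 (edgeR adjusted p = 0.643) and 0.02 ± 0.03 in TET2KO_3 (edgeR adjusted p = 0.64) were not called. An F-test over the 3 knockouts, on 2 degrees of freedom, called them different for MYCN, with a span of 0.74 on the log2 scale (edgeR adjusted p = 7.99e-79). All 19 alternative analyses kept each of these MYCN results on its side of the threshold.

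MYC, the family member most widely expressed outside the nervous system, was low and ran in another order. It gave 210 and 185 counts in WT (3.82 and 3.3 CPM), 56 and 46 in TET2KO_1 (1.06 and 0.812 CPM), 144 and 132 in TET2KO_2 (2.58 and 2.39 CPM) and 46 and 64 in TET2KO_3 (0.786 and 1.25 CPM). WT was highest and TET2KO_1 and TET2KO_3 were lowest, whereas MYCN was lowest in TET2KO_2. MYC was called lower in TET2KO_1 (log2 fold change -1.93 ± 0.25, edgeR adjusted p = 4.94e-11) and TET2KO_3 (-1.83 ± 0.25, edgeR adjusted p = 2.14e-10). The fall of 0.52 in TET2KO_2 was called narrowly (SE 0.2, edgeR adjusted p = 0.04). That call was lost without WT replicate 1 (adjusted p = 0.243), without TET2KO_2 replicate 1 (0.104) or replicate 2 (0.193) and with DESeq2 (0.167). The difference among knockouts spanned 1.41 (edgeR adjusted p = 1.03e-06). Per kilobase, MYC transcripts amounted to 0.0438% of the MYC-family sum in WT, so MYCN made up nearly all of it.

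Endothelial and mesenchymal markers were also highest in the WT libraries. Endothelial markers summed to 12.6 to 13 CPM in WT, 1.66 to 2.11 in TET2KO_1, 4.13 to 4.96 in TET2KO_2 and 2.38 to 3.01 in TET2KO_3; 5, 4 and 5 of 6 were called lower, and none was at 0. In that sum, as in MYC, WT was highest and TET2KO_2 next. Mesenchymal markers summed to 1435 to 1456 CPM in WT, 1073 to 1107 in TET2KO_1, 1135 to 1155 in TET2KO_2 and 966 to 987 in TET2KO_3. Of the 8, 5 were called lower in each knockout, and 2, 0 and 1 were called higher in turn. PRRX1 was at 0 in TET2KO_1 and TET2KO_3. Of all tested genes, 9.72%, 14.3% and 9.96% were called lower, and 7.79%, 12.0% and 8.9% higher, in the same order. Immune markers summed to 7.71 to 16.8 CPM in batch 2, with CD3E at 0 in every group. Their part in the fall of MYC was not tested.

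MYCL was not called in any knockout. It was at 3.62 and 3.21 CPM in WT, 5.02 and 3.46 in TET2KO_1, 2.71 and 3.02 in TET2KO_2 and 4.49 and 4.41 in TET2KO_3. The TET2KO_1 replicates spanned the WT values. The knockouts differed among themselves by 0.64 (edgeR adjusted p = 0.00511), a call lost without TET2KO_2 replicate 1 (adjusted p = 0.124).

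MAX was not called in any knockout. Its level was 73.7 and 72.7 CPM in WT, 73.3 and 75.2 in TET2KO_1, 66.3 and 68.4 in TET2KO_2 and 70.3 and 64.3 in TET2KO_3. The log2 fold changes were 0.02 ± 0.05, -0.12 ± 0.05 (edgeR adjusted p = 0.0631) and -0.12 ± 0.05 (edgeR adjusted p = 0.0882). MAX became called in TET2KO_2 without either TET2KO_3 library (adjusted p = 0.0474 and 0.0482) and in TET2KO_3 without its replicate 1 (0.0364). The difference among knockouts (0.14, edgeR adjusted p = 0.0216) was lost without TET2KO_1 replicate 1 (0.0552) or 2 (0.189) and without TET2KO_2 replicate 1 (0.0751).

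The antagonists split in TET2KO_2. MXD1 was at 16.7 and 16.2 CPM in WT, 16.2 and 14.6 in TET2KO_1, 22.3 and 24.3 in TET2KO_2 and 15.7 and 15.9 in TET2KO_3. It rose 1.41-fold in TET2KO_2 (log2 fold change 0.50 ± 0.08, edgeR adjusted p = 2.06e-07), above all 6 other libraries. MXI1 went the other way, at 61.5 and 63.5 CPM in WT, 65.9 and 65.0 in TET2KO_1, 48.5 and 49.9 in TET2KO_2 and 61.1 and 63.5 in TET2KO_3. It fell by 0.34 in TET2KO_2 (SE 0.05, edgeR adjusted p = 3.98e-08). Both differed among the knockouts, by 0.59 for MXD1 (edgeR adjusted p = 1.8e-11) and 0.41 for MXI1 (edgeR adjusted p = 1.54e-11).

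MXD3 was called higher in TET2KO_3. It was at 13.2 and 13.4 CPM in WT, 14.5 and 16.3 in TET2KO_1, 15.5 and 15.9 in TET2KO_2 and 20.4 and 17.7 in TET2KO_3. The rise in TET2KO_3 was called (0.52 ± 0.09, edgeR adjusted p = 1.04e-06), and those in TET2KO_1 (0.21 ± 0.10, edgeR adjusted p = 0.113) and TET2KO_2 (0.24 ± 0.10, edgeR adjusted p = 0.0513) were not. Every knockout library nonetheless lay above both WT libraries. In TET2KO_2 the rise stayed uncalled in 15 of 19 alternatives. It was called with library totals alone (edgeR adjusted p = 0.022) and with all 14 libraries in 1 fit (edgeR adjusted p = 0.0189). The difference among knockouts (0.31, edgeR adjusted p = 0.00276) was lost without TET2KO_3 replicate 1 (adjusted p = 0.307).

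The 3 members with an E-box before their start, MXD4, MNT and MLX, were not called in any knockout and did not differ among them by the test. Their E-box windows are given so that they can be set beside the levels, with the motif in capitals and the RefSeq strand of the gene (GRCh38.p14; MXD4 chr4:2262315-2262359, minus strand; MNT chr17:2401221-2401280, minus strand; MLX chr17:42567023-42567082, plus strand).
MXD4: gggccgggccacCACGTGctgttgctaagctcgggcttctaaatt
MNT: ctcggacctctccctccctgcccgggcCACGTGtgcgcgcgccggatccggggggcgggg
MLX: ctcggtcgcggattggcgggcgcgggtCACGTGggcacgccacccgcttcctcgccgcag
Across the 8 libraries of batch 2, MXD4 stayed within 32.7 to 38.8 CPM, MNT within 50.5 to 56.4 CPM and MLX within 92.3 to 101 CPM. Their log2 fold changes lay between -0.08 and 0.07. A value that was not called does not show that the groups were alike.

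By count, 1 of 10 members was called in TET2KO_1 (MYC, lower), 4 in TET2KO_2 (MXD1 higher; MYCN, MYC and MXI1 lower) and 2 in TET2KO_3 (MXD3 higher, MYC lower). Of all tested genes, 17.5% were called in TET2KO_1 (7.79% higher and 9.72% lower), 26.3% in TET2KO_2 (12.0% and 14.3%) and 18.9% in TET2KO_3 (8.9% and 9.96%). Among the knockouts 7 of 10 members differed, against 37.6% of all genes. These comparisons share the 2 WT libraries, so their values are given side by side and not as separate support.

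In TET2KO_2 the ratios were again the lowest of their batch. MYCN to MAX per kilobase was 149 and 154 in WT, 148 and 146 in TET2KO_1, 102 and 99.2 in TET2KO_2 and 160 and 175 in TET2KO_3. MYCN to the summed antagonists was 65.5 and 65.4 in WT and 41.9 and 40.1 in TET2KO_2. The antagonist sum itself was 26.9 and 27.4 CPM per kilobase in WT and 25.7 and 27.1 in TET2KO_2, overlapping, so the ratio followed MYCN.

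Genes that MYC proteins are known to activate were followed as a list of 61, made up largely of nucleolar, ribosome-assembly and nucleotide-synthesis genes. All 61 were tested. At 10 µM, 8 were higher and 8 lower, which is 13.1% each where 11.6% of all genes were higher and 11.1% lower; the 16 called became 7 without H2O replicate 1 or without 10 µM replicate 2, 6 with DESeq2 and 2 with all 14 libraries in 1 fit. At 50 µM, 7 were higher and 36 lower (59% lower, where 31.1% of all genes were lower), with a median log2 fold change of -0.08 beside 0.0 for all genes. Between the doses 8 were higher and 32 lower (52.5%, where 26.5% of all genes were lower), and the 8 higher became 5 without 10 µM replicate 2. The processome component UTP20 fell by 0.34 at 50 µM and the arginine methyltransferase PRMT3 by 0.32, while the helicase subunit MCM5 (0.29) and RCL1 (0.22) rose.

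In TET2KO_2, 3 genes of the list were higher and 23 lower (37.7% lower, where 14.3% of all genes were lower), with a median of -0.09. The 3 higher became 1 without TET2KO_2 replicate 2. TET2KO_1 had 7 higher and 7 lower (11.5% each, where 7.79% of all genes were higher and 9.72% lower). TET2KO_3 had 7 higher and 3 lower (11.5% and 4.92%, where 8.9% of all genes were higher and 9.96% lower), and the median was 0.02 in both. The 14 called in TET2KO_1 became 8 without WT replicate 1, 9 without WT replicate 2 and 6 without TET2KO_1 replicate 2, and the 10 in TET2KO_3 became 6 without WT replicate 1 and 20 with all 14 libraries in 1 fit. The nucleoside transporter SLC29A2 was at 43.3 and 45.7 CPM in WT and 27.7 and 29.2 in TET2KO_2, a fall of 0.65 (SE 0.07, edgeR adjusted p = 3.5e-17). The ribosome-assembly gene NOP16 was at 59.5 and 62.7 CPM in WT and 43.2 and 47.3 in TET2KO_2, a fall of 0.43 (SE 0.06, edgeR adjusted p = 1.72e-11). Lactate dehydrogenase LDHA (0.20) and the polyamine enzyme ODC1 (0.13) were called higher there. SLC29A2 was not called at 50 µM (-0.05 ± 0.04, edgeR adjusted p = 0.299).

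**Figure D4:**
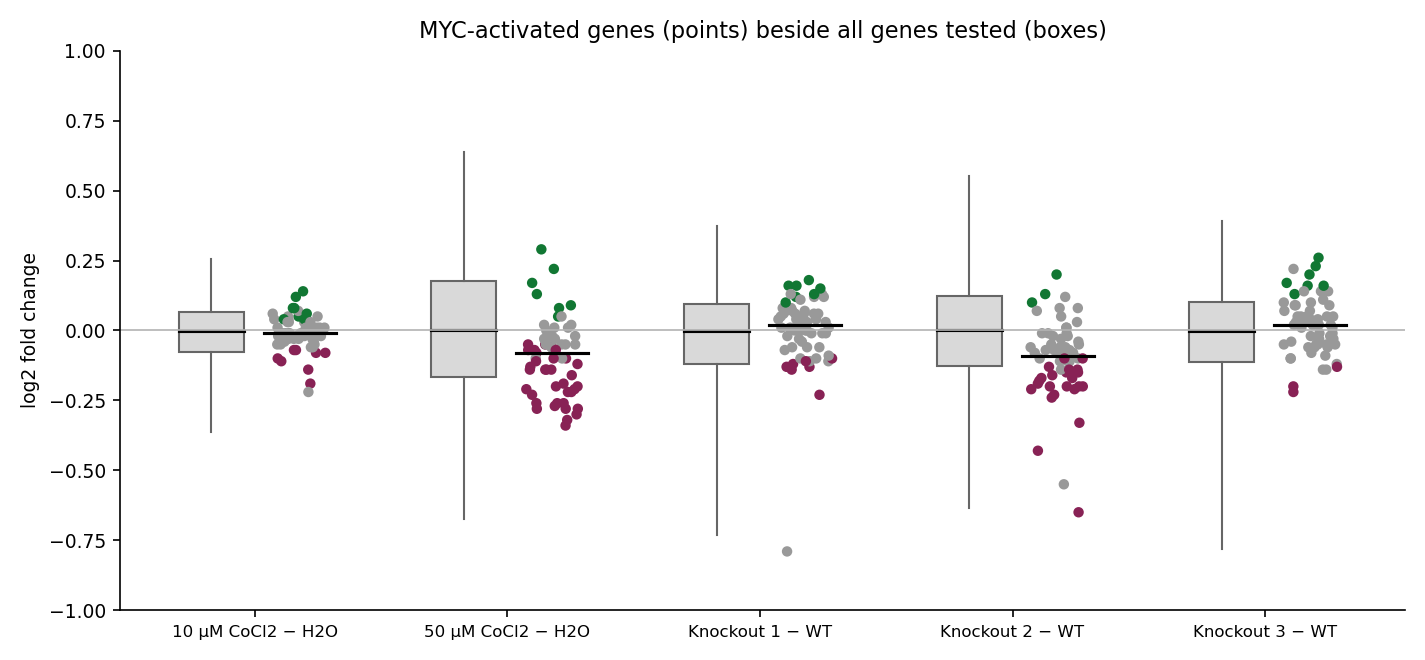
Log2 fold changes of the 61 MYC-activated genes in 5 comparisons, beside those of all genes tested. Points are genes (green called higher, purple called lower, grey not called), horizontal lines are medians, boxes span the 25th to 75th percentile and whiskers the 5th to 95th percentile of all genes. The medians of the list lie at -0.08 for 50 µM CoCl2 and -0.09 for TET2KO_2.

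Of the list, 15 genes were lower both at 50 µM CoCl2 and in TET2KO_2, which is 41.7% of the 36 and 65.2% of the 23. These shares lie near those of the whole list, of which 37.7% were lower in TET2KO_2 and 59% at 50 µM. Over all genes tested in both batches, 1082 were lower in both, 25.8% of the 4188 lower at 50 µM and 55.9% of the 1935 lower in TET2KO_2. Those shares lie further above the 14.3% of all genes lower in TET2KO_2 and the 31.1% lower at 50 µM. These comparisons share no library. The size of the list's changes was small: its median absolute log2 fold change was 0.10 in each, below the 0.17 of all genes at 50 µM and the 0.13 of all genes in TET2KO_2.

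An E-box was found in the windows of 29 of the 50 listed genes that had one (58.0%), against 11% of all counted genes. Examples are shown for the 3 genes with an E-box before the start, lower in both comparisons, that fell most in TET2KO_2: the ribosome-assembly gene IMP4 (chr2:130342667-130342726, plus strand), the nucleotide pyrophosphatase DCTPP1 (chr16:30429801-30429836, minus strand) and UTP20 (chr12:101280068-101280104, plus strand), from RefSeq, GRCh38.p14, with the motif in capitals.
IMP4: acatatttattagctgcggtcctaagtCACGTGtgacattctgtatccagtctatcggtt
DCTPP1: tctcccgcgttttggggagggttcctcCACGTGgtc
UTP20: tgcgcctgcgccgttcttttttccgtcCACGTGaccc
IMP4 fell by 0.14 at 50 µM and by 0.20 in TET2KO_2, DCTPP1 by 0.22 and 0.17, and UTP20 by 0.34 and 0.17. UTP20 was also called lower in TET2KO_1 (-0.11) and TET2KO_3 (-0.20), and its difference among knockouts was not called (edgeR adjusted p = 0.108). DCTPP1 was called higher in TET2KO_1 (0.16) and TET2KO_3 (0.26), and IMP4 was not called in either (0.08 and 0.09). At 50 µM, 20 of the 29 genes with an E-box were lower (69.0%) and 10 of the 21 without (47.6%). In TET2KO_2 the order was the other way, with 8 of 29 (27.6%) and 10 of 21 (47.6%). This split was chosen after values were seen, was not tested, and a match is a description of letters in a window.

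Genes reported to be repressed by MYCN were a list of 14. At 50 µM all 13 tested were called, 5 higher (38.5%) and 8 lower (61.5%), where 30.4% of all genes were higher and 31.1% lower. In TET2KO_2, 3 of 14 were higher (21.4%) and 6 lower (42.9%), where 12.0% of all genes were higher and 14.3% lower. TET2KO_1 had 5 higher (35.7%) and 4 lower (28.6%), where 7.79% of all genes were higher and 9.72% lower. TET2KO_3 had 5 higher and 5 lower (35.7% each), where 8.9% of all genes were higher and 9.96% lower. The shares called were thus above those of all genes also in the knockouts where MYCN was not called. CDKN1A, the cell-cycle inhibitor p21, was at 16.7 and 16.6 CPM in H2O, 23.0 and 22.6 at 10 µM and 37.4 and 38.5 at 50 µM, a rise of 2.28-fold at 50 µM (log2 fold change 1.19 ± 0.05, edgeR adjusted p = 3.16e-52). It was not called in TET2KO_2 (-0.13 ± 0.06, edgeR adjusted p = 0.113). The chaperone CLU rose in TET2KO_2 (0.43), and the transglutaminase TGM2 was lower in all 3 knockouts, by 1.48, 1.37 and 1.28. DKK3, a member of the Dickkopf family of Wnt inhibitors, fell by 0.57 at 10 µM and by a further 0.97 between the doses. It fell by 0.89 in TET2KO_1. Its group means were 27.2 CPM in WT, 14.7 in TET2KO_1, 14.9 in TET2KO_2 and 21.3 in TET2KO_3. TGM2 and INHBA were also called lower at 50 µM, from 34 and 45 counts to 8 and 10 and from 15 and 19 counts to 3 and 4.

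Cofactors of the network were read from 3 lists, whose counts stand beside 61.4% of all genes called at 50 µM (30.4% higher, 31.1% lower) and 26.3% in TET2KO_2 (12.0% higher, 14.3% lower). The lists are short, and shares of 71.4% of corepressor genes at 50 µM, or 21.4% of coactivators and 28.6% of corepressor genes in TET2KO_2, lie near those of all genes. Coactivators were called at 35.7% in TET2KO_1 and 42.9% in TET2KO_3, where 17.5% and 18.9% of all genes were called. Corepressor genes were called at 0% and 14.3% there. At 10 µM, 71.4% of corepressor genes and 28.6% of coactivators were called, where 22.7% of all genes were. Those 5 corepressor calls became 0 with DESeq2. Of 14 MYC coactivators, 7 were higher and 4 lower at 50 µM, with the acetyltransferase KAT2A up by 0.37 and the helicase RUVBL1 down (-0.36). In TET2KO_2, 1 was higher and 2 lower, of which the elongation kinase CDK9 was lowest (-0.19); these 3 calls became 1 without WT replicate 2 or without either TET2KO_2 library. Of 7 corepressor-complex genes that serve MXD and MNT proteins, 2 were higher and 3 lower at 50 µM, including HDAC2 (-0.19) and SIN3A (-0.15), and the 5 calls became 3 without H2O replicate 1. In TET2KO_2 HDAC2 (-0.08) and SAP30 (-0.14) were lower; neither call held without WT replicate 1, WT replicate 2 or TET2KO_2 replicate 2, and 1 held without TET2KO_2 replicate 1. Of 12 genes that control MYC or MYCN protein turnover, 4 were higher and 7 lower at 50 µM. The mitotic kinases PLK1 (-0.56) and AURKA (-0.48), both known to stabilise MYCN protein, fell there. Both were called higher in TET2KO_3 (0.29 and 0.22) and in TET2KO_2 (0.14 and 0.12). PLK1 was also called higher in TET2KO_1 (0.11), where AURKA was not called (0.07). In TET2KO_2, 4 turnover genes were higher and none lower, among them the ubiquitin ligase TRIM32 (0.23), PLK1 and AURKA. These 4 calls became 1 without WT replicate 2 or without TET2KO_2 replicate 2. MGA, another MAX partner, was lower in TET2KO_1 and TET2KO_3 (-0.17 in each) and was not called in TET2KO_2 (0.08). MLXIP was lower in TET2KO_1 (-0.16) and TET2KO_2 (-0.25), and was not called in TET2KO_3 (-0.09). TXNIP rose in TET2KO_2 (0.22) and ARRDC4 fell there (-0.20), and leaving out any 1 of the 4 WT and TET2KO_2 libraries left 1 of these 2 genes called. Without WT replicate 1, neither MGA nor MLXIP was called in TET2KO_1 and neither in TET2KO_3.

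Genes next to MYCN were examined because the locus is amplified in this line; copy number itself was not measured. Within 5 Mb lay 32 other counted genes, of which 27 were tested in batch 2. In TET2KO_2, 2 were higher (7.41%) and 8 lower (29.6%), where 12.0% of all genes were higher and 14.3% lower. In TET2KO_1, 2 were higher (7.41%) and 5 lower (18.5%), where 7.79% of all genes were higher and 9.72% lower. In TET2KO_3, 3 were higher (11.1%) and 5 lower (18.5%), where 8.9% of all genes were higher and 9.96% lower. A share of lower neighbours above that of all genes was thus not particular to TET2KO_2. The helicase DDX1, 0.31 Mb away and often co-amplified with MYCN, was called lower in TET2KO_1 (-0.13) and TET2KO_2 (-0.14) and was not called in TET2KO_3 (-0.08, edgeR adjusted p = 0.0547). NBAS, 0.38 Mb away, was called lower in each (-0.13, -0.16 and -0.18). Neither differed among the knockouts by the test (edgeR adjusted p = 0.224 for DDX1 and 0.709 for NBAS), in contrast with MYCN. The largest called falls among neighbours in TET2KO_2 were those of RHOB (-0.41) and VSNL1 (-0.33), both smaller than the -0.72 of MYCN. At 50 µM CoCl2, 2 of 25 tested neighbours were higher (8.0%) and 13 lower (52.0%), where 30.4% of all genes were higher and 31.1% lower, with DDX1 at -0.12 and NBAS at -0.06.

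**Figure D5:**
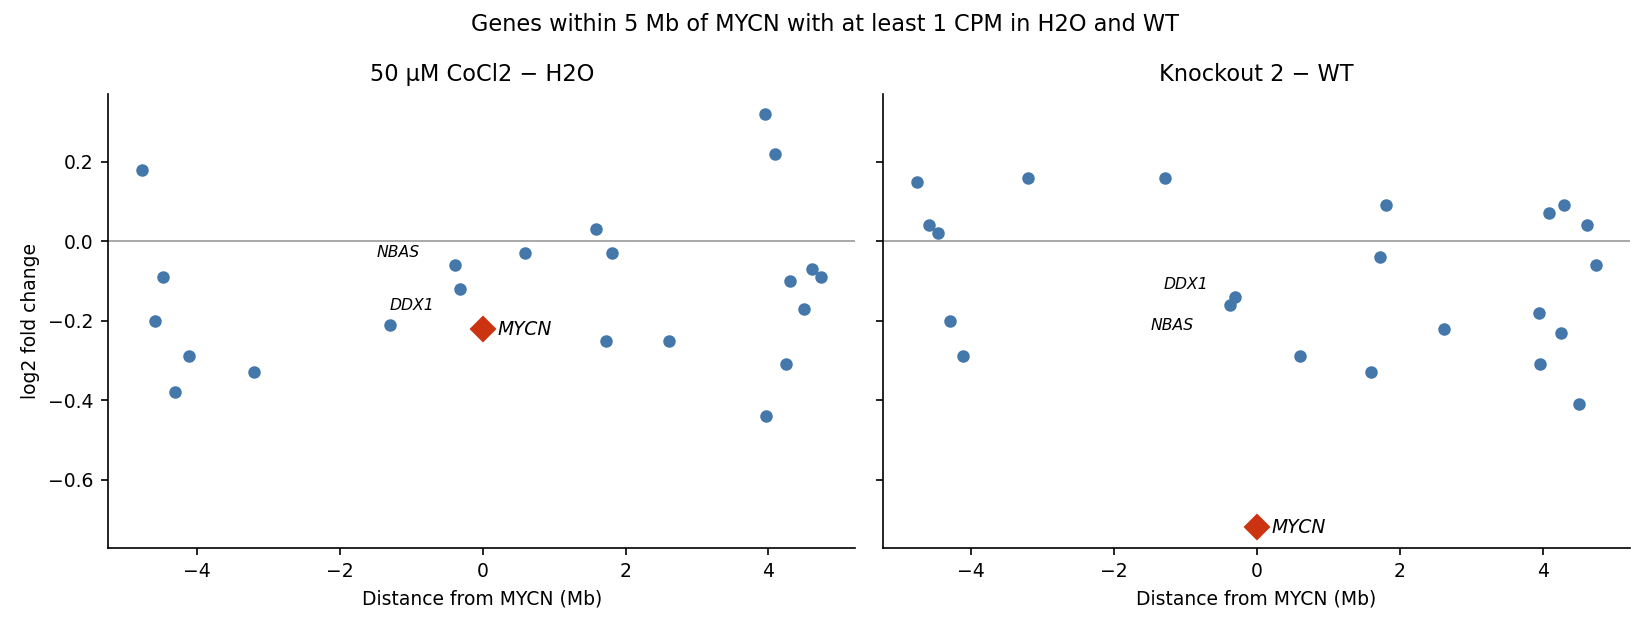
Log2 fold changes of genes within 5 Mb of MYCN that had a mean of at least 1 CPM in H2O and in WT, against their distance from MYCN in Mb, at 50 µM CoCl2 (left) and in TET2KO_2 (right). The diamond is MYCN, and DDX1 and NBAS are named. MYCN lies within the range of its neighbours at 50 µM (-0.22) and below all of them in TET2KO_2 (-0.72).

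The genes whose pattern was most like that of MYCN were ranked by the root mean square difference of log2 fold changes over the 5 comparisons with controls, among 9051 genes with a mean of at least 10 CPM in both batches. The 5 nearest were TRIB1 (difference 0.04), SLC35F2 (0.08), NES (0.09), ARHGAP31 (0.09) and PPARD (0.10), where the median gene was at 0.35. TRIB1, a pseudokinase, had log2 fold changes of 0.08 and -0.15 at 10 and 50 µM and 0.03, -0.68 and 0.04 in TET2KO_1, TET2KO_2 and TET2KO_3. NES, which encodes the neural progenitor filament nestin, had a level of 620 CPM in WT and 405 CPM in TET2KO_2 as group means. These 5 were selected for the likeness, which is a description over 14 libraries.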

How the data were processed

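Polyadenylated RNA was read as raw counts per gene. Per the file headers, the authors counted reads over GENCODE 33 exons of protein-coding genes with featureCounts, with the paired option and no strand option. The submitters' processing notes name Trimmomatic 0.36, STAR 2.6.1d, Subread 1.5.3 and GRCh38. Among counts of 1 to 10, 77.3% to 80.5% were even in batch 2 and 39.0% to 42.3% in batch 1, so a batch 2 count mostly stood for 1 read of a pair and its depth in fragments is lower.

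Counts were tested with edgeR 4.0.16 (filterByExpr, TMM, quasi-likelihood, dispersion at least 0.0001001) in R 4.3.3, in 1 fit per batch over 13636 and 14061 genes, with Benjamini-Hochberg adjustment; each SE was taken from the log2 fold change and its F statistic. CPM uses TMM-scaled totals, except shares of counts. The fits were tested on simulated data. DESeq2 1.42.0, other scalings, filters, sample sets and each library left out were alternatives. The members and all gene lists were chosen with earlier results of these data known. Beyond the members, the 2 largest called rises and falls of a list in a comparison and every gene of lists of 5 or fewer could be named, with DDX1, NBAS and the 5 genes most like MYCN; IMP4 and DCTPP1 were chosen after their values were seen.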

Additional observations from a re-analysis of the deposited data

Results flagged for a closer look

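Several members differed among the 3 labelled knockouts by the F-test on 2 degrees of freedom. The span of their 3 values against WT, from lowest to highest log2 fold change, was 0.74 for MYCN, 1.41 for MYC, 0.64 for MYCL, 0.14 for MAX, 0.59 for MXD1, 0.31 for MXD3 and 0.41 for MXI1. MYCN, MXD1 and MXI1 stood apart in TET2KO_2, MXD3 was highest in TET2KO_3, and MYC was highest in TET2KO_2 among the knockouts. The calls for MYCL, MAX and MXD3 were lost without certain single libraries.

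MYCN was called higher than H2O at 10 µM CoCl2 and lower at 50 µM, and the doses differed directly by a log2 fold change of -0.31. The rise at 10 µM was 0.09, where the median absolute log2 fold change of all genes was 0.07.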

How the results depend on the processing

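Each member's log2 fold change was recomputed under up to 19 alternatives per comparison, 1165 values in all. Of these, 1124 stayed on their side of the threshold, 28 lost a call, 13 gained one, and no called value changed sign. The number of members called in TET2KO_1 went from 1 to 2 with all 14 libraries in 1 fit, where MXD3 was also called (0.22, adjusted p = 0.0389); the cause was not tested. Leaving out each library in turn gave 3 to 4 members called at 10 µM, 8 at 50 µM, 5 to 7 between the doses, 1 in TET2KO_1, 3 to 5 in TET2KO_2, 2 to 3 in TET2KO_3 and 5 to 7 among the knockouts. Replicate numbers paired only 2 libraries per group, and deviations of same-numbered libraries correlated at -0.06 to 0.02 in batch 1 and -0.13 to 0.1 in batch 2; with the replicate number as a block the members called were 4, 8, 7, 1, 4, 2 and 7 in the same order, as without it. MXD4 differed among the knockouts with library totals alone (0.17, adjusted p = 0.0446). MYC-activated genes lower numbered 26 to 36 at 50 µM and 16 to 27 in TET2KO_2 over alternatives added after seeing the data. Over all genes, 3098 were called at 10 µM, against 1122 with DESeq2 and 796 with all 14 libraries in 1 fit. MYC in batch 1, MLXIPL and INHBA are limited by depth. Other scalings moved the median of all genes by at most 0.03.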
